A study of Mus musculus with 6 samples.

Results

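The immunoglobulin variable (V) gene segments were taken as every gene in the deposited count table whose symbol starts with Ighv, Igkv or Iglv followed by a digit. This gave 189 of the 26027 genes, of which 116 were heavy chain (Ighv), 70 kappa light chain (Igkv) and 3 lambda light chain (Iglv) segments. All 189 were found by identifier in GENCODE M21, an annotation of the mouse mm10 build, which places the Ighv segments on chromosome 12, the Igkv segments on chromosome 6 and the Iglv segments on chromosome 16. It lists 21 of the 116 heavy segments as V pseudogenes and every other member as a V gene. No gene in the count table had counts in fewer than 2 libraries, so a V segment read in 1 library alone is not among these 189.

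The RNA came from bone marrow cells of C57BL/6 mice that were sorted as lineage negative (Lin-), cKit+ and eYFP+, a gate the labels describe as immature haematopoietic multipotent progenitors. All mice carried the hScl-CreERT transgene, a Cre recombinase that tamoxifen activates and that is named for the blood stem cell gene Scl, and R26eYFP, a Rosa26 reporter that makes a yellow fluorescent protein where Cre has acted, and all had received tamoxifen in vivo. One group of 3 libraries was Srsf2 +/+ (wild-type below) and the other 3 were Srsf2 P95H/+, which carry 1 copy of a changed codon in the splicing factor gene Srsf2. Wild-type replicate 1 was a 54 week old female and wild-type replicates 2 and 3 were 32 week old males, while P95H/+ replicates 1 and 2 were 32 week old females and P95H/+ replicate 3 was a 32 week old male. The labels do not say whether each library is 1 mouse or a pool, and the lineage antibodies are not given in the sources used here. A codon change cannot be checked in gene counts.

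An antibody's variable region is assembled in a developing B cell, where the RAG recombinase joins 1 V segment to a joining segment in a light chain locus, and to a diversity and a joining segment in the heavy chain locus. The joined gene is read from the promoter of the chosen V segment, and each B cell clone and its descendants keep that choice. An unjoined V segment can also be transcribed before rearrangement, which is called germline transcription. A plasma cell, the antibody-secreting end stage of the B lineage, holds far more immunoglobulin RNA than other B cells. Counts per gene do not tell joined from unjoined transcripts.

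V segments are short and alike, and this sets what a count can say. Their annotated exons spanned 297 to 480 bases, with a median of 358. Each member was set against all other V segments of its chain in GENCODE M21, members or not. The nearest was identical at a median of 94.9% of positions. These were coding positions, or those of the whole transcript where no coding part is annotated. Of the members, 93 had a neighbour at 95% or more, 14 had one at 98% or more, and none had a fully identical one. The last 150 coding bases, as long as 1 sequencing read, are shown for 5 segments on which the results turn, each beside its closest member, from the GENCODE M21 transcripts in 5′ to 3′ order of the gene, with capitals at the bases that differ from the partner at the same position. The heavy pair Ighv1-15 (chr12:114657353-114657786, minus strand) and Ighv1-23 differed at 7 coding positions over their whole length, 2 of them in the stretch shown.
Ighv1-15: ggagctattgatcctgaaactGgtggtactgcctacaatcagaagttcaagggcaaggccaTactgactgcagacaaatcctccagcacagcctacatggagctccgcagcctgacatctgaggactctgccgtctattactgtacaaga
Ighv1-23: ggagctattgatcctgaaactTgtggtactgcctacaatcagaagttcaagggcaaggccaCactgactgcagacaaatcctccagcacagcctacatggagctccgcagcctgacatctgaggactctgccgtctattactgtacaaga
Ighv1-18 (chr12:114682632-114683065, minus strand) and Ighv1-26 differed at 11 positions, 2 of them here.
Ighv1-18: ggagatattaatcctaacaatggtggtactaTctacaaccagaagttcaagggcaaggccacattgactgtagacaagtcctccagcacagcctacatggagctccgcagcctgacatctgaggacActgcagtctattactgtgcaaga
Ighv1-26: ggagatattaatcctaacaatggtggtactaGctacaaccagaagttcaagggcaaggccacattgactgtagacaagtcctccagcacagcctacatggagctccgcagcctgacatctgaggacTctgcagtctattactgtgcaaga
The lambda segments Iglv1 (chr16:19085017-19085500, minus strand) and Iglv2 differed at 11 positions, 5 of them here.
Iglv1: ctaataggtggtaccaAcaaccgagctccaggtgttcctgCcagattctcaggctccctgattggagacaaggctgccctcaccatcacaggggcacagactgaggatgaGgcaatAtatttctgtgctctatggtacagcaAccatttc
Iglv2: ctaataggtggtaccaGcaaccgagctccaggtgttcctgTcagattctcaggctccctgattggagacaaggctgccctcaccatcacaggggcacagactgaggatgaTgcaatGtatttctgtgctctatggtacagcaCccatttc
The kappa segments Igkv1-110 (chr6:68270485-68271267, plus strand) and Igkv1-117 differed at 10 positions, 4 of them here, all near the 3′ end.
Igkv1-110: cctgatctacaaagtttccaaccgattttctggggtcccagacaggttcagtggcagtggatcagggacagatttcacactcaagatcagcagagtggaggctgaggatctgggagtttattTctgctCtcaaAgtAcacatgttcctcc
Igkv1-117: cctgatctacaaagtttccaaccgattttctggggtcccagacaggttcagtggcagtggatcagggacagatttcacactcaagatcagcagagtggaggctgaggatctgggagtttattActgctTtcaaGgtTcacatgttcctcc
Igkv14-126 (chr6:67896172-67896642, plus strand) and its closest member Igkv14-111 were less alike, with 30 differences, 20 of them here.
Igkv14-126: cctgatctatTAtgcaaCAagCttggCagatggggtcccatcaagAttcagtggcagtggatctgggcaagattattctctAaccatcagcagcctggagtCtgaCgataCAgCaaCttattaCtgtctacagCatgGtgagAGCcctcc
Igkv14-111: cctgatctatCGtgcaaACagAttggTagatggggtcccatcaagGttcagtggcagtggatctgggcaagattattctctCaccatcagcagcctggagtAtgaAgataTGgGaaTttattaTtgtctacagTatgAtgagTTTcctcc
Reads that fall only on lower-case stretches match both members of a pair, and how such reads were counted is not given in the sources used here.

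Library totals ran from 10747941 counts in P95H/+ replicate 3 to 23010510 in wild-type replicate 1. On the leading principal component, wild-type replicate 3 and P95H/+ replicate 3 lay away from the other 4 libraries; it held 61.6% of the variance (48.7 and 81.8 against -36.1 to -24.3). They also differed from the others by base composition, with genes of at most 40% GC at a median log2 deviation of -0.47 and -0.76, against 0.23 to 0.43 in the other 4. V segments had a median GC content of 49.3% (40.1% to 53.3%), and the genotype calls and the counts of separated segments are also given without these libraries.

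V segment transcripts made up a small and uneven part of every library. The 189 segments together drew 11856 counts, 0.0102% of all counts in the 6 libraries. As CPM, the count over the library total scaled to a common size, they summed to 110.5, 48.6 and 71.2 in wild-type replicates 1 to 3 and to 153, 118 and 103 in P95H/+ replicates 1 to 3. The mean was 76.8 ± 31.3 CPM (SD, n = 3) in wild-type and 125 ± 26.1 (SD, n = 3) in P95H/+ libraries. The groups overlapped, because wild-type replicate 1 lay above P95H/+ replicate 3. With TMM scaling (edgeR's trimmed mean of log ratios) they did not, at 48.4 to 107 against 109 to 157 CPM. Sex is not balanced between the genotypes, and each of the 3 female libraries (wild-type replicate 1 and P95H/+ replicates 1 and 2) lay above each of the 3 male libraries. Within each sex, the P95H/+ libraries lay above the wild-type libraries, at 153 and 118 against 110.5 CPM in females and at 103 against 48.6 and 71.2 CPM in males. The part of sex, or of the greater age of wild-type replicate 1, in the V level was not tested. In bulk RNA, fewer cells of a type and less RNA per cell cannot be told apart.

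The heavy chain segments summed to 48.9, 24.5 and 34.6 CPM in the wild-type libraries and to 67.1, 52.2 and 51.2 CPM in the P95H/+ libraries, so that each P95H/+ library lay above each wild-type library. The means were 36.0 ± 12.3 and 56.8 ± 8.94 CPM (SD, n = 3 each). The gap between the nearest libraries, wild-type replicate 1 and P95H/+ replicate 3, was small beside the spread within either group, and with annotated functional segments alone those values were 46.8 and 46.9 CPM. No test was made of these sums, since the segments were chosen with results of these data known.

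Kappa segments summed to 59.3, 23.3 and 35.1 CPM in wild-type libraries and to 70.8, 63.9 and 48.8 CPM in P95H/+ libraries. These groups overlapped, with wild-type replicate 1 above P95H/+ replicate 3. Each female library lay above each male library in the kappa sum. Lambda segments, which serve the minor light chain of mice, summed to 2.26, 0.758 and 1.54 CPM in wild-type libraries and to 15.4, 1.59 and 2.70 CPM in P95H/+ libraries. P95H/+ replicate 1 alone was far above the rest, and there lambda made up 17.9% of light chain V counts, against 2.43% to 5.24% in the other 5 libraries.

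**Figure D1:**
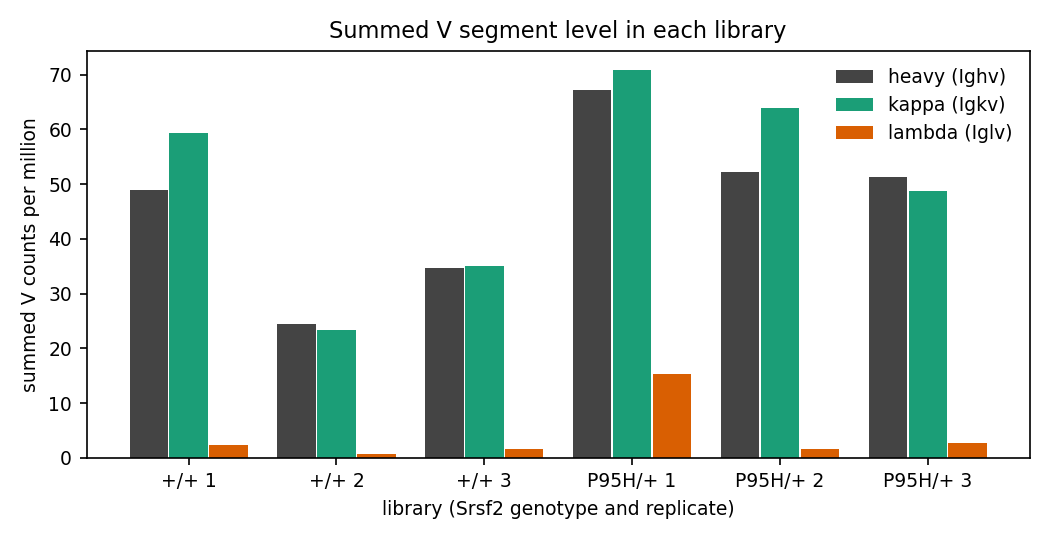
Summed V segment level in each library, in CPM, for heavy (Ighv), kappa (Igkv) and lambda (Iglv) segments, 1 bar per library and chain with no error bar because each bar is 1 library. Heavy bars run from 24.5 to 48.9 in wild-type and from 51.2 to 67.1 in P95H/+ libraries, and the lambda bar of P95H/+ replicate 1 reaches 15.4.

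Heavy and light chain V counts moved together from library to library. The ratio of heavy to light counts, which needs no library scaling, was 0.794, 1.02 and 0.945 in the wild-type libraries and 0.778, 0.796 and 0.995 in the P95H/+ libraries. The means were 0.919 ± 0.114 and 0.856 ± 0.12 (SD, n = 3 each), a difference smaller than the spread within either group. The spread followed sex, with 0.778 to 0.796 in the female and 0.945 to 1.02 in the male libraries. The part of sex in this ratio was not tested. Heavy and light summed levels thus both had their lowest library in wild-type replicate 2 and their highest in P95H/+ replicate 1.

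Most segments were read in most libraries, but with few counts. At least 1 count was found for 167, 142 and 135 segments in the wild-type libraries and for 131, 142 and 144 in the P95H/+ libraries, or 148 ± 16.8 and 139 ± 7.0 (SD, n = 3 each). The groups overlapped, and wild-type replicate 1 had the most segments. Over the 6 libraries a segment had a median of 36 counts and at most 521, and 1 count was worth 0.0435 to 0.093 CPM.

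Across libraries, 59 segments were detected in all 6, among them 38 heavy, 18 kappa and all 3 lambda segments, and 20 were detected in just 2. Heavy segments alone were detected at 102, 94 and 86 in wild-type and at 81, 87 and 83 in P95H/+ libraries, and here P95H/+ replicate 2 overlapped wild-type replicate 3. The count of segments did not follow the summed level, since P95H/+ replicate 1 had the highest level and the fewest segments.

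Depth changes these numbers, so the number of segments expected in a draw of equal size was also computed. With each library thinned to 10747941 counts, 144, 119 and 117 segments were expected in the wild-type and 111, 123 and 144 in the P95H/+ libraries. With each thinned to 1025 V counts, the smallest V total of any library, the numbers were 139.8, 142 and 129 against 98.8, 118 and 141. P95H/+ replicate 1 was lowest under both, and P95H/+ replicate 3 lay among the wild-type values. At 517 heavy counts each, 85.3, 94 and 82.6 heavy segments were expected in the wild-type libraries and 59.5, 69.4 and 81.5 in the P95H/+ libraries, so the groups no longer overlapped, although P95H/+ replicate 3 and wild-type replicate 3 lay close together. At 508 light counts the groups overlapped, at 56.6, 48 and 46.6 against 40.9, 50.1 and 59.8 light segments.

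The share of a chain's counts held by its leading segments measures how concentrated the V transcripts of a library are. In 5 of the 6 libraries no heavy segment held more than 7.56% of heavy counts. The leading heavy segment was Ighv1-81 in wild-type replicate 1, at 7.56% (exact 95% binomial interval 6.08% to 9.26%), Ighv1-5 in wild-type replicate 2, at 6.58% (4.6% to 9.07%), and Ighv1-82 in wild-type replicate 3, at 5.83% (4.07% to 8.05%). It was Ighv1-64 in P95H/+ replicate 2, at 6.78% (5.41% to 8.37%), and Ighv9-3 in P95H/+ replicate 3, at 6.18% (4.32% to 8.53%). A different segment thus led in each library, and the intervals of these 5 overlap.

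P95H/+ replicate 1 differed. There Ighv1-15 held 272 of 1455 heavy counts, 18.7% (16.7% to 20.8%), followed by Ighv1-7 with 139 counts and Ighv1-52 with 128. The leading 5 segments held 48.1% of its heavy counts, against 24.2% to 29.4% in the other 5 libraries. The inverse Simpson number, the count of equally used segments that would give the same concentration, was 15 there and 37.5, 42.5 and 35.9 in the wild-type libraries, with 31.4 and 37.6 in P95H/+ replicates 2 and 3. Per base of exon the same segments led, except that Ighv1-18 led the heavy chain in P95H/+ replicate 2. The P95H/+ mean of the leading heavy share, 10.6%, was 6.48% without replicate 1, beside 6.65% in wild-type libraries. These intervals cover counting error only, and reads copied by PCR are not independent molecules.

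The leading light segment held a larger share than the leading heavy segment in 5 of the 6 libraries, among fewer segments (73 against 116), and the exception was P95H/+ replicate 1. Igkv1-110 led in wild-type replicate 1, at 11.2% of light counts (9.56% to 12.9%), in wild-type replicate 3, at 19.3% (16.2% to 22.6%), and in P95H/+ replicate 3, at 16.1% (13.1% to 19.4%). Igkv1-135 led in wild-type replicate 2, at 18.7% (15.4% to 22.4%), and Igkv1-117 in P95H/+ replicate 2, at 8.77% (7.38% to 10.3%). In P95H/+ replicate 1 the lambda segment Iglv1 led, at 17.3% (15.6% to 19.1%). The inverse Simpson number for light chains was 26.5, 14.9 and 14.9 in the wild-type libraries and 13.6, 26.6 and 18.7 in the P95H/+ libraries, and the groups overlapped.

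**Figure D2:**
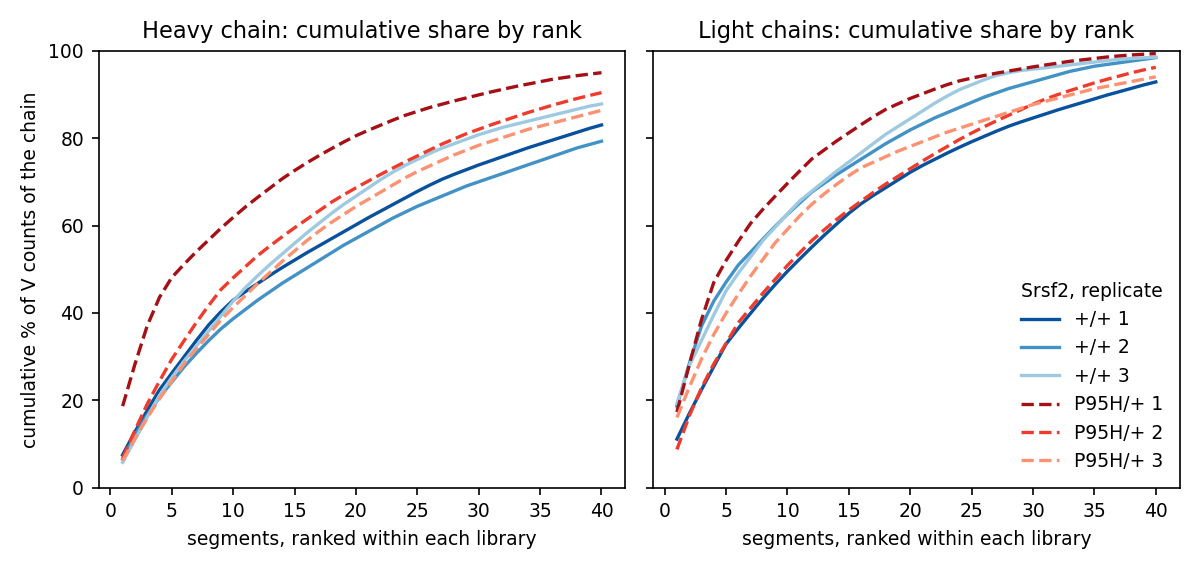
Cumulative percent of heavy chain (left) and light chain (right) V counts against segment rank within each library, for the 40 highest ranks, with solid lines for wild-type and dashed lines for P95H/+ libraries. On the left P95H/+ replicate 1 reaches 61.9% by rank 10 while the other 5 reach 38.7% to 48.1%; on the right the 6 lines spread from 49.5% to 69.7% with genotypes mixed.

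Libraries shared some of their leading segments, within and between genotypes. Of the 10 leading heavy segments, pairs of wild-type libraries shared 3 to 5 (median 4), pairs of P95H/+ libraries 2 to 4 (median 3) and pairs of different genotype 0 to 4 (median 2). For light chains these were 3 to 5 (median 4), 5 to 6 (median 5) and 2 to 5 (median 3). The ranges overlapped or met, and pairs that share a library are not independent, so no test was made. The pair with no heavy segment in common was wild-type replicate 2 and P95H/+ replicate 1.

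Many single V segments drew most of their level from 1 library. Of the 124 segments with at least 20 counts over the 6 libraries, 40 (32.3%) had over 50% of their summed CPM in 1 library, against 159 of 19892 genes of the whole table (0.799%) at the same count minimum. The library with over 50% was P95H/+ replicate 2 for 14 segments, P95H/+ replicate 1 for 12, replicate 3 of each genotype for 5, wild-type replicate 1 for 3 and wild-type replicate 2 for 1. At a minimum of 50 counts, 23 of 75 segments (30.7%) did so, against 0.514% of genes. V segments that entered the genotype test had a median of 0.998 CPM, against 16.2 for all genes tested, and the part of this level in their concentration was not tested. The biological coefficient of variation that edgeR fitted had a median of 0.684 over the 57 tested segments and of 0.273 over all 17144 genes tested. The part of level in this difference was not tested either.

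Ighv1-52 had 87.1% of its summed CPM in P95H/+ replicate 1, with 128 counts there and 1 to 4 in each of the other 5 libraries. It is the member at rank 3 of that library and was named after its values were seen. Ighv1-7, named in the same way, had 139 counts in P95H/+ replicate 1 and 3, 4 and 16 in the wild-type libraries, with 8 and 7 in the other P95H/+ libraries.

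Along the heavy chain locus, V segments lie at increasing distance from the joining segments, and transcripts were read from its whole length. The 116 segments were split by distance from Ighj1, the joining segment nearest to them, into 39 at 149 to 1057 kb, 39 at 1083 to 1729 kb and 38 at 1736 to 2570 kb. The nearest held 26.4% to 43.6% of heavy counts over the 6 libraries, the middle 23.6% to 57.5% and the farthest 16.2% to 35.3%. The 57.5% was that of P95H/+ replicate 1, and its leading segments Ighv1-15, Ighv1-7 and Ighv1-52 all lay in that middle stretch.

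The 21 heavy pseudogenes, which cannot encode a working chain, drew a median of 8 counts over the 6 libraries, against 35 for the 95 functional heavy segments. They held 4.36%, 12.2% and 8.92% of heavy counts in the wild-type libraries and 2.41%, 2.29% and 8.36% in the P95H/+ libraries. P95H/+ replicates 1 and 2 were lowest, and P95H/+ replicate 3 lay among the wild-type values. Each female library (wild-type replicate 1 and P95H/+ replicates 1 and 2) lay below each male library. The part of sex in this share was not tested. From 14 to 18 of the 21 were read in each library. For kappa, the 23 segments farthest from the joining segments, at 1887 to 3112 kb, held 39.3% to 59.8% of kappa counts.

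**Figure D3:**
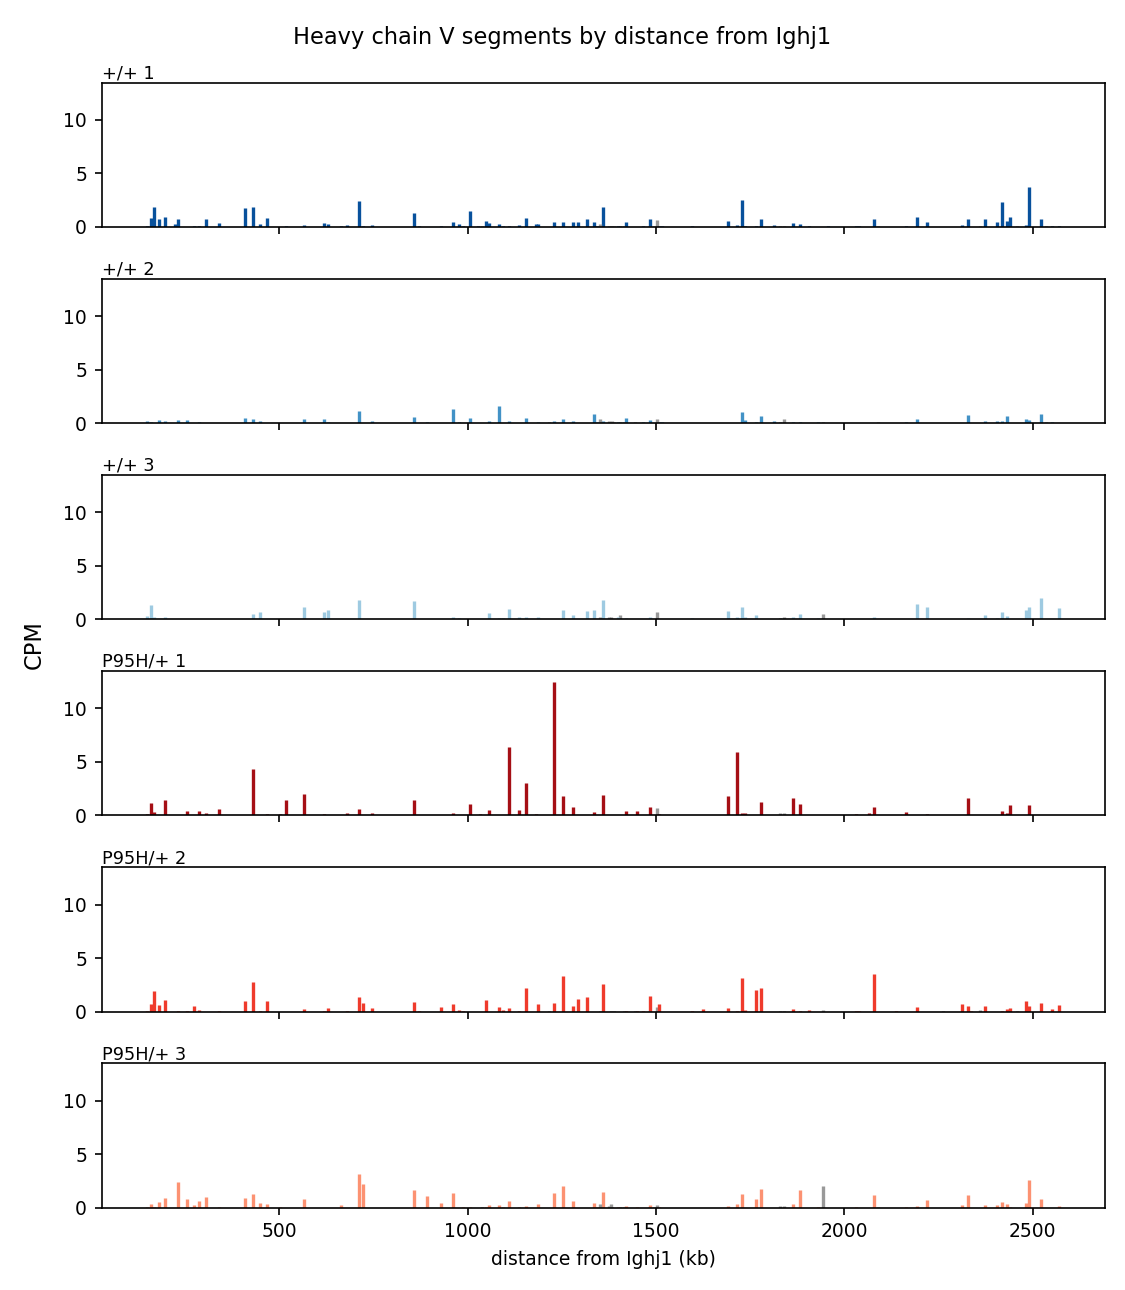
Level of each of the 116 heavy chain V segments in CPM against its distance from Ighj1 in kb, 1 panel per library on a common scale, with V pseudogenes in grey. Segments are read along the whole locus in each library, and the tallest line, Ighv1-15 at 1228 kb in P95H/+ replicate 1, reaches 12.5.

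By family, the large Ighv1 group, 68 of the 116 heavy segments (58.6%), held 57.4%, 63.4% and 64.0% of heavy counts in the wild-type libraries and 70.3%, 66.7% and 54.0% in the P95H/+ libraries. The share was thus close to that of its members, and the genotypes overlapped. The 8 Ighv5 segments held 3.43% to 16.4%. Among kappa families, the 8 Igkv1 segments were 11.4% of the members and held 19.0% to 41.3% of kappa counts. Their summed level was 11.3, 9.62 and 9.32 CPM in the wild-type libraries and 15, 12.6 and 12.6 CPM in the P95H/+ libraries, with each P95H/+ library above each wild-type library. Their share of kappa counts overlapped, at 19.0%, 41.3% and 26.6% against 21.2%, 19.8% and 25.8%. By level, each P95H/+ library also lay above each wild-type library for Igkv16 and below for Ighv11, families of 1 segment each. All other families overlapped. The 7 Igkv6 segments summed to 7.61, 1.47 and 2.55 CPM in wild-type and to 18.8, 12.1 and 6.33 CPM in P95H/+ libraries, and there wild-type replicate 1 overlapped P95H/+ replicate 3.

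The comparison of genotypes gene by gene asks whether any V segment differs between P95H/+ and wild-type progenitors. With edgeR's quasi-likelihood test and Benjamini-Hochberg adjustment, 0 of the 17144 genes tested had an adjusted p under 0.05 (0%), so no V segment was called. Of the 189 segments, 57 passed the filter on low counts, and 18 of these had an unadjusted p under 0.05, 17 higher and 1 lower in P95H/+, where 0.7% of all tested genes were higher and 1.41% lower at that level. Since a low-count segment can pass the filter through the group in which it is high, those counts support no direction. With no filter, 35 of the 189 had an unadjusted p under 0.05, 29 of them higher, where 2.52% of all 26027 genes had such a p and 0.895% had one and were higher.

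DESeq2 called 8 genes (0.0467%), 2 of which were V segments, Ighv1-15 and Ighv1-18. In CPM, 15 of all 189 segments (7.94%) had each P95H/+ library above each wild-type library, where 2.23% of the whole table did, and 5 (2.65%) had each below, where 5.91% did. Without replicate 3 of both genotypes the share above was no larger than that of the table, with 33 segments (17.5%) above against 17.7% of genes and 27 (14.3%) below against 25.1%. Without replicate 3 of both genotypes, edgeR called 144 of 17371 genes (0.829%), 7 of them V segments. That fit leaves out the libraries that lay away from the rest, which was known from earlier results, and rests on 2 libraries a group. The segments it called higher were Ighv1-18, Ighv1-9, Igkv6-15, Igkv12-44 and Igkv3-10, and those it called lower were Igkv14-126 and Igkv4-91. Of these, Ighv1-9, Igkv12-44 and Igkv3-10 fell outside the rule for named segments and are named for this call.

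**Figure D4:**
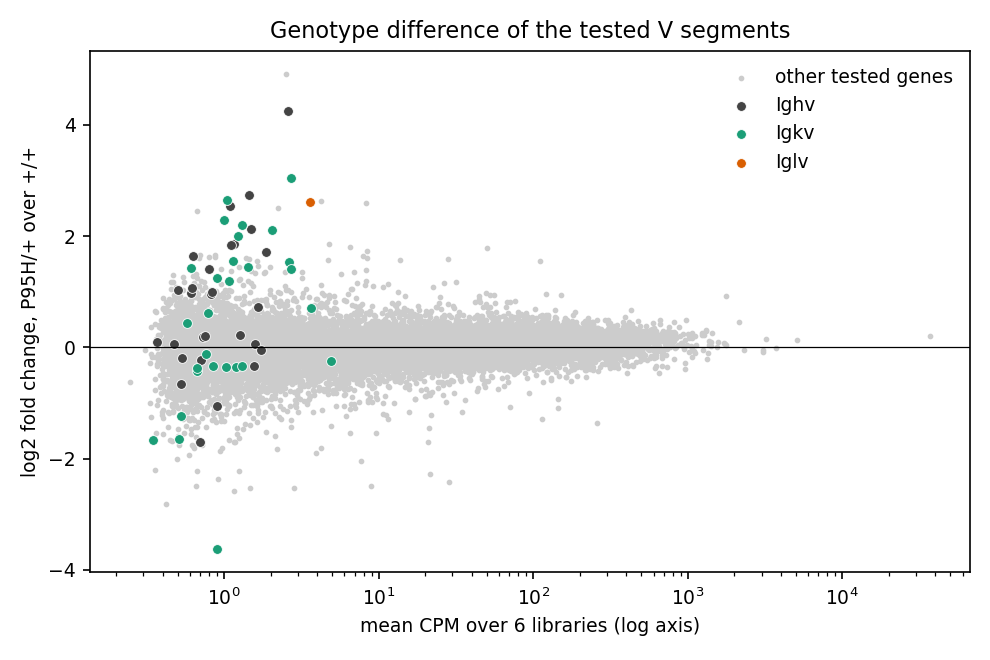
log2 fold change of P95H/+ over wild-type from edgeR against mean CPM (log axis) for the 17144 genes tested, with the 57 tested V segments coloured by chain. The V segments lie at the low end of expression, spread from -3.62 (Igkv14-126) to 4.25 (Ighv1-15), and none passed an adjusted p of 0.05.

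Among heavy segments, Ighv1-18 had the smallest p and groups that did not overlap. It stood at 0.435, 0.426 and 0.891 CPM in the wild-type libraries and at 1.80, 3.32 and 2.05 CPM in the P95H/+ libraries. The lowest P95H/+ library was above the highest wild-type library, and the log2 fold change was 2.13 (SE 0.41, edgeR adjusted p = 1). DESeq2 gave an adjusted p of 0.037, and edgeR without replicate 3 of both genotypes gave a log2 fold change of 2.58 (SE 0.39) with an adjusted p of 0.0227. Its near-copy Ighv1-26 had 1.87, 0.237 and 1.78 CPM in wild-type and 1.94, 2.61 and 1.49 CPM in P95H/+ libraries, and these overlapped.

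Ighv1-15 stood at 0.478, 0.237 and 0.0594 CPM in the wild-type libraries and at 12.5, 0.796 and 1.40 CPM in the P95H/+ libraries. No library of one genotype fell within the range of the other, but P95H/+ replicate 1 was far above the rest. The log2 fold change of 4.25 (SE 1.21, edgeR adjusted p = 1) was 2.02 without that library. Its near-copy Ighv1-23 had 0.435, 0.853 and 0.831 CPM in wild-type and 0.369, 0 and 0.465 CPM in P95H/+ libraries.

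Ighv1-64 had 0.739, 0.0474 and 0.178 CPM in wild-type and 0.784, 3.54 and 1.21 CPM in P95H/+ libraries, led by P95H/+ replicate 2, with a log2 fold change of 2.53 (SE 0.86, edgeR adjusted p = 1) that was 4.11 without wild-type replicate 1 and 1.63 without P95H/+ replicate 2. Ighv5-17 had 1.83, 0.379 and 0.475 CPM against 4.38, 2.74 and 1.30 CPM, and the groups overlapped. Ighv1-55, named after its values were seen, had 0.739, 0.711 and 0 CPM against 1.25, 2.21 and 1.77 CPM, and its groups did not overlap (log2 fold change 1.84, edgeR adjusted p = 1). Ighv9-3, Ighv1-26, Ighv1-53, Ighv1-81, Ighv1-82 and Ighv1-76 all overlapped between groups, with log2 fold changes from -1.70 for Ighv1-76 to 0.73 for Ighv1-26, none past the test. Ighv1-5, which led wild-type replicate 2 with 34 counts, had 0 to 10 counts elsewhere and did not pass the filter; it overlaps an annotated microRNA gene.

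Among kappa segments, Igkv6-15 and Igkv10-96 had values closer together in P95H/+ than in wild-type libraries. Igkv6-15 stood at 0.565, 0.426 and 0.831 CPM in wild-type and at 1.57, 1.86 and 1.58 CPM in P95H/+ libraries, with a log2 fold change of 1.54 (SE 0.32, edgeR adjusted p = 1). Igkv10-96 stood at 2.13, 0.948 and 1.48 CPM in wild-type and at 3.78, 4.25 and 3.54 CPM in P95H/+ libraries, with a log2 fold change of 1.41 (SE 0.33, edgeR adjusted p = 1). Each separated the genotypes in all 6 libraries without passing the adjusted test. Without replicate 3 of both genotypes, Igkv6-15 passed edgeR, at a log2 fold change of 1.80 with an adjusted p of 0.0495.

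Igkv14-126 was the tested segment with the smallest p among those lower in P95H/+ libraries. It had 31, 29 and 36 counts in the wild-type libraries and 1, 0 and 5 in the P95H/+ libraries, or 1.35, 1.37 and 2.14 against 0.0461, 0 and 0.465 CPM. The groups did not overlap, and the log2 fold change was -3.62 (SE 0.87, edgeR adjusted p = 1). Without replicate 3 of both genotypes it was -5.57 (SE 0.69), with an edgeR adjusted p of 0.00784. Its closest member Igkv14-111 had 2.09, 0.284 and 0 CPM in wild-type and 4.34, 1.59 and 0.279 CPM in P95H/+ libraries, and its groups overlapped.

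Igkv16-104, Igkv1-117 and Igkv6-23 also had each P95H/+ library above each wild-type library. Igkv6-23 stood at 1.65, 0 and 0.119 CPM in wild-type and at 7.34, 5.0 and 2.14 CPM in P95H/+ libraries, a log2 fold change of 3.05 (SE 1.07, edgeR adjusted p = 1) that was 6.4 without wild-type replicate 1, which holds 38 of the 40 wild-type counts. Igkv1-117 stood at 0.739, 2.08 and 1.37 CPM in wild-type and at 2.54, 5.75 and 3.35 CPM in P95H/+ libraries, with a log2 fold change of 1.54 (SE 0.47, edgeR adjusted p = 1). Igkv16-104 stood at 0.435, 0.426 and 0.653 CPM in wild-type and at 0.923, 2.08 and 2.88 CPM in P95H/+ libraries, lowest of these in replicate 1.

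The kappa segments Igkv1-110 and Igkv1-135, of highest mean CPM, did not separate the genotypes. Igkv1-110 stood at 6.87, 2.32 and 7.07 CPM in wild-type and at 2.58, 2.21 and 8.28 CPM in P95H/+ libraries, so that both replicate 3 libraries were high. Igkv1-135 stood at 3.17, 4.50 and 0.831 CPM against 9.27, 3.58 and 0.372 CPM, with both replicate 3 libraries low. Igkv6-25 stood at 2.22, 0.0474 and 0.119 CPM against 8.95, 0.840 and 0.093 CPM, and 73.0% of its summed CPM came from P95H/+ replicate 1. Igkv4-91 had 19, 10 and 2 counts in wild-type and 0, 0 and 7 in P95H/+ libraries, and its groups overlapped.

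**Figure D5:**
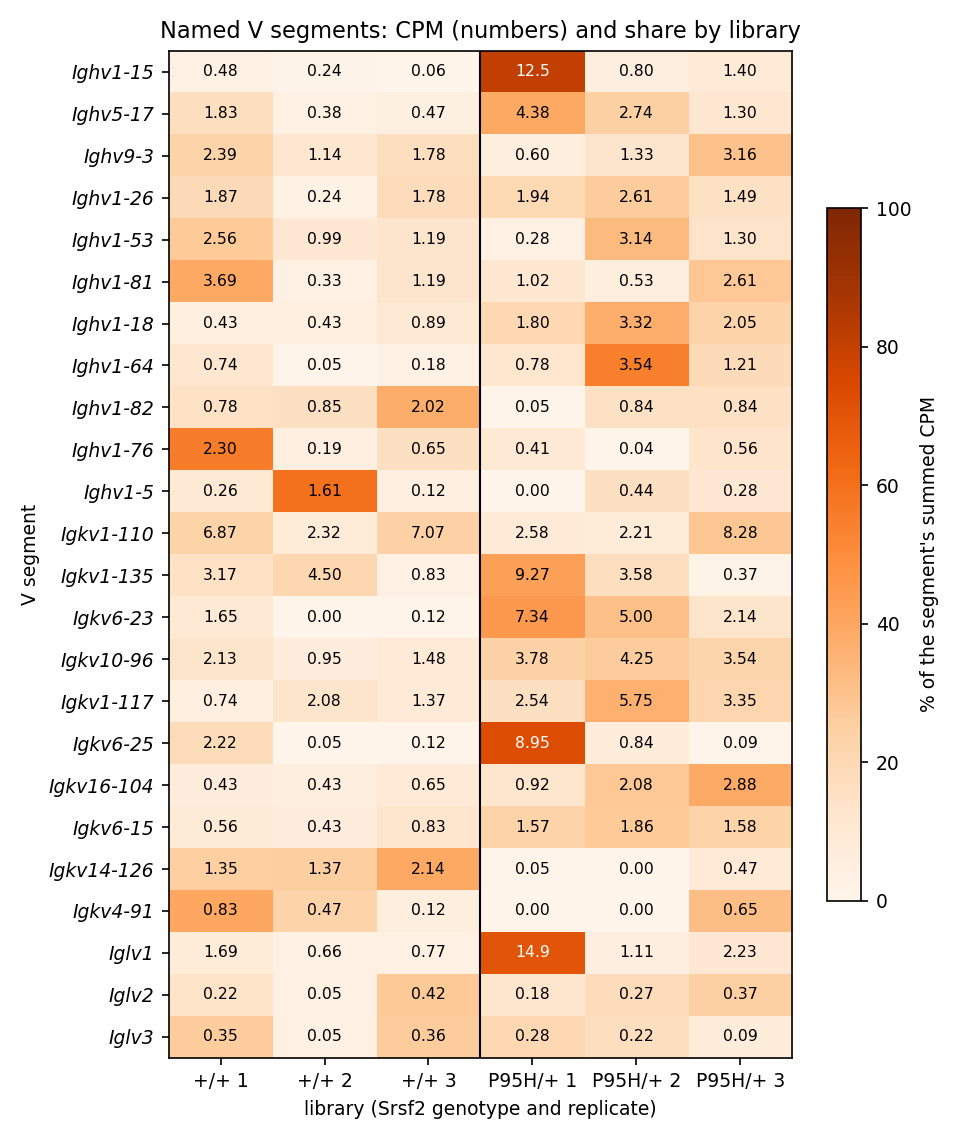
CPM of the V segments singled out by level, by rank in a library or by the genotype test (numbers in the cells), with colour for the percent of a segment's summed CPM that lies in each library, from 0 to 100. Igkv6-15 and Igkv10-96 are paler and even within the P95H/+ columns, and Ighv1-18 is highest in P95H/+ replicate 2. Ighv1-15 and Iglv1 have 80.9% and 69.8% of their sum in P95H/+ replicate 1.

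Of the 3 lambda segments, Iglv1 drew the most counts. It had 39, 14 and 13 counts in the wild-type libraries and 324, 25 and 24 in the P95H/+ libraries, or 1.69, 0.663 and 0.772 against 14.9, 1.11 and 2.23 CPM. The groups overlapped, with wild-type replicate 1 above P95H/+ replicate 2, and the log2 fold change of 2.62 (SE 0.97, edgeR adjusted p = 1) was 0.69 without P95H/+ replicate 1. Iglv2 had 5, 1 and 7 counts in wild-type and 4, 6 and 4 in P95H/+ libraries. Iglv3 had 8, 1 and 6 against 6, 5 and 1 counts, so neither was high in P95H/+ replicate 1. Iglv1 overlaps an annotated antisense gene, 2010309G21Rik, whose counts were between 0 and 5 in the 6 libraries.

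Constant region genes are joined to rearranged V segments by splicing, and their counts are set beside the V counts. Iglc1, a constant gene that Iglv1 is joined to, had 53, 17 and 10 counts in the wild-type libraries and 402, 30 and 21 in the P95H/+ libraries, and was thus high in the same single library as Iglv1. Iglc2, the usual partner of Iglv2, had 43, 11 and 14 against 18, 19 and 20 counts, and the groups overlapped. Igkc, the kappa constant gene, stood at 82.4, 32.2 and 38.9 CPM in wild-type and at 92.2, 82.6 and 79.7 CPM in P95H/+ libraries, in the same order within wild-type libraries, from replicate 1 to replicate 3 to replicate 2, as the kappa V sum. Each female library lay above each male library in Igkc, as in the kappa V sum, and the part of sex was not tested. Kappa V counts per Igkc count were 0.720, 0.725 and 0.902 in wild-type and 0.768, 0.774 and 0.611 in P95H/+ libraries, which overlapped.

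For heavy chains, Ighm, the constant gene of IgM, stood at 237, 258 and 209.9 CPM in wild-type and at 171, 192 and 239 CPM in P95H/+ libraries and so did not follow the heavy V sum. The switched constant genes, those of IgG, IgA and IgE, summed to 114, 29.3 and 72.3 CPM in wild-type and to 189, 146 and 254 CPM in P95H/+ libraries, with no overlap between groups. Most of this sum was Igha, the constant gene of IgA, at 99.3, 14.7 and 61.3 against 177, 116 and 192 CPM (log2 fold change 1.56, SE 0.61, edgeR adjusted p = 1). Ighg1, the constant gene of IgG1, stood at 0.174, 0.190 and 0.119 against 2.63, 5.70 and 6.23 CPM, with a log2 fold change of 4.90 (SE 0.49, edgeR adjusted p = 0.253). It was the only gene that edgeR called with the replicate number as a block, and it was among the 8 genes that DESeq2 called. Heavy V counts per heavy constant count were 0.137, 0.0842 and 0.121 in wild-type and 0.186, 0.153 and 0.102 in P95H/+ libraries, which overlapped. Per switched constant count they were 0.428, 0.835 and 0.479 in wild-type and 0.355, 0.357 and 0.201 in P95H/+ libraries, each P95H/+ value below each wild-type value.

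B lineage markers were also read in these sorted cells. No gene of any list passed the edgeR test with genotype alone and all 6 libraries (0 called). Median log2 fold changes are set beside 0.02 over all 17144 genes tested. Of 10 tested constant and joining genes 8 were higher and 2 lower in P95H/+ (median 1.15). Of the 14 early B cell genes 9 were higher and 5 lower (median 0.10), and Cd79a, a B cell receptor subunit, stood at 11.3, 15.6 and 6.89 CPM in wild-type and at 6.78, 6.68 and 21.9 CPM in P95H/+ libraries. Of the 14 mature B cell genes 5 were higher and 9 lower (median -0.08), and their summed CPM ran from 281 to 366 in wild-type and from 238 to 417 in P95H/+ libraries. Most of that sum was Cd37, Cd74, H2-Ab1 and H2-Aa, at mean CPM of 113, 80.9, 53.9 and 38.2.

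Of the 10 genes of V(D)J recombination 2 were higher and 8 lower (median -0.13). Rag1, a subunit of the recombinase, stood at 10.2, 23.3 and 9.97 CPM in wild-type and at 4.89, 3.71 and 12.1 CPM in P95H/+ libraries, so the library with the lowest V level, wild-type replicate 2, had the highest Rag1. Of 12 tested plasma cell genes 7 were higher and 5 lower (median 0.01), with summed CPM of 621 to 641 against 524 to 640. Most of that sum was Edem1, Xbp1 and Sec11c, at mean CPM of 208, 169 and 99.9, while Prdm1 and Mzb1 had 1.22 and 2.28. Tnfrsf17, a receptor of plasma cells, had 2, 3 and 1 counts in wild-type and 12, 3 and 0 in P95H/+ libraries. Jchain, which links IgA and IgM into polymers, stood at 33.4, 8.34 and 9.26 against 51.7, 36.7 and 19.9 CPM, and its groups overlapped. Each female library lay above each male library in Jchain, and the part of sex was not tested. Of 11 genes listed as octamer and other V promoter or enhancer factors 9 were higher and 2 lower (median 0.10), with summed CPM of 1552 to 1779 against 1742 to 1957. That list was broad, since it also held Ctcf and Ezh2, and its member Pou2af1 was among the plasma cell genes too.

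Markers of other cells were read too. Of 7 tested T and NK cell genes 1 was higher and 6 were lower (median -0.85), with sums of 161 to 309.9 against 182 to 245 CPM, most of it Nkg7. Erythroid genes summed to 305 to 411 against 180.4 to 693 CPM (2 of 3 higher, median 0.02). Neutrophil genes summed to 5411 to 8925 against 6439 to 7722 CPM (4 of 4 higher, median 0.12). The progenitor genes Kit, Cd34 and Flt3, of which Kit encodes the cKit of the gate, summed to 953 to 1064 against 874 to 1042 CPM (1 of 3 higher, median -0.04), and Kit alone stood at 476 to 548 CPM in the 6 libraries. The part of any of these cells in the V segment results was not tested.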

How the data were processed

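Ribosome-depleted total RNA of sorted cells was sequenced in paired reads from stranded libraries, per the labels' protocols. The submitters' processing notes name Trim Galore, cutadapt, STAR 2.5.3a, Picard 1.96, featureCounts, Subread 1.5.1, edgeR, limma and mm10; the strand setting is not given in the sources used here. The authors deposited raw counts per gene for 26027 genes, and CPM values equal to count over library total within 5e-04; all results start from the counts. Segments were chosen by symbol, with results of these data already known, as were the gene lists. Segments were named by the 6 highest mean CPM per chain, as leader of a library, by a call with all 6 libraries and by smallest p.

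The test between genotypes was that of edgeR 4.0.16, run under R 4.3.3 (TMM, filterByExpr, robust quasi-likelihood F test, two-sided, Benjamini-Hochberg over 17144 genes, threshold 0.05). This test was also run on simulated counts, which did not carry the shift of the replicate 3 libraries and so cannot vouch for it here. Its p-values weigh the genotype difference against the spread between these libraries, and sex and age were not in this model. DESeq2 1.42.0, limma 3.58.1 voom, other scalings and filters, sex, replicate block and leaving out libraries were alternatives. Deviations of same-numbered libraries from their group means correlated at 0.372, 0.348 and 0.613, above the 0.1 taken as pairing, but crossed numbers 1 and 2 correlated as well (0.463 and 0.386). Coordinates and sequences are from GENCODE M21.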

Additional observations from a re-analysis of the deposited data

How the results depend on the processing

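Of 310 values for 21 tested named segments, 285 kept direction and side of the threshold, 6 newly passed it and 19 changed sign. Called V segments went from 0 to 2 (DESeq2) and 7 (without replicate 3 of both genotypes), and stayed at 0 when 1 library was left out. Called genes went from 0 to 8 (DESeq2), 1 (replicate block), 1 (without wild-type replicate 3) and 144 (without replicate 3 of both genotypes), and ranged from 0 to 1 with 1 library left out. The block gained Ighg1 and changed no call of a V segment.

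Mean segments detected, 148 in wild-type and 139 in P95H/+, became 96.7 and 96.3 at 3 counts, 51.3 and 56.3 at 10 counts, and 127 and 126 after thinning to equal totals. The 5 leading segments held a mean of 25.2% and 34.0% of heavy and 41.7% and 41.7% of light counts. By library the heavy values were 48.1%, 29.4% and 24.4% in P95H/+ replicates 1, 2 and 3, against 24.2% to 26.2% in wild-type libraries. The 40 segments with over 50% of summed CPM in 1 library (32.3% of 124) became 23 of 75 (30.7%, genes 0.514%) at 50 counts, 69 of 108 (63.9%, genes 1.87%) without replicate 3 of both genotypes and 41 to 60 with 1 library left out. These settings were added after the data were seen.

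The sign of 6 log2 fold changes turned. Leaving out 1 library gave -1.11 to 0.0961 for Igkv1-110 (0.00485 without P95H/+ replicate 1), -0.409 to 1.22 for Igkv1-135, -0.567 to 5.36 for Igkv6-25, -0.821 to 0.369 for Ighv9-3, -1.04 to 0.602 for Ighv1-53 and -1.13 to 0.896 for Ighv1-81. Igkv1-135 was -0.231 with sex in the model and Ighv9-3 was 0.0245 in DESeq2. Ighv1-53 was -0.00088 with library totals, -0.403 with voom, -0.158 with the replicate block, -0.164 with sex and -0.0355 without replicate 3 of both genotypes. The cause was not tested. Of the 189 segments, 65 had under 20 counts in all.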
